A study of Mus musculus with 4 samples.

Results

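The genes described here belong to the mouse major histocompatibility complex (MHC), called H2 in the mouse, and to the machinery that loads its proteins with peptide. They were taken by name: all rows named H2- in the deposited table, together with B2m, Tap1, Tap2, Tapbp and Cd74. This gave 50 genes of the 50600 in the table. The 45 H2- rows all lay on chromosome 17, where they span 3.509 Mb (mm10, chr17:33974831-37483552). By class there were 32 class I genes, 12 class II genes, 4 peptide-loading genes, the invariant chain gene Cd74, and H2-Ke6, which carries an H2- name but encodes a metabolic enzyme and no MHC chain.

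MHC class I molecules pair a heavy chain with beta-2-microglobulin and show peptides from the cytosol to CD8 T cells. The peptides are cut by the proteasome, pumped into the endoplasmic reticulum by the TAP transporter and loaded with the help of tapasin. Class II molecules are alpha-beta pairs, found mainly on antigen-presenting cells, that show peptides from endosomes to CD4 T cells, and the invariant chain Cd74 guards their groove until the peptide is exchanged. Embryonic stem cells are known for low class I expression, and class II expression is known mainly from immune cells.

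Expression was measured by RNA-seq in OG2ES, a mouse embryonic stem cell line. There were 2 libraries from Myh9 KO cells and 2 from WT cells. Cells of both genotypes were kept in ES medium with 2i, a pair of kinase inhibitors used for naive culture, and had no other treatment. The labels do not say how Myh9 was removed, how many clones were used, or that the replicates came from separate cultures. What is particular to the Myh9 KO line and what follows from losing Myh9 therefore cannot be told apart. The p-values cover only the spread among these libraries, and that spread may be technical.

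The deposited values are whole numbers, with library sums of 992245 and 992317 in Myh9 KO 1 and 2 and of 992128 and 992098 in WT 1 and 2. Such nearly equal sums are those of normalized values, so the values were not treated as read counts and the depth of each library is unknown. Between 11653 and 11947 genes were above 0 in a library. Differences were tested with limma on log2(value + 1) over the 11231 genes whose mean value reached 1, at a Benjamini-Hochberg adjusted p under 0.05. A second fit added random decimals to the whole numbers, because replicates with equal whole numbers leave no spread, and "rose" or "fell" is used only of genes that both tests called. Fold changes are Myh9 KO over WT on the log2(value + 1) scale, where changes of low values come out too small, with n = 2 libraries per group throughout.

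Myh9, which encodes the non-muscle myosin IIA heavy chain, fell to 9 and 9 in Myh9 KO cells, against 83 and 100 in WT cells (log2 fold change -3.20, SE 0.12, adjusted p = 0.00675 with limma). The stem cell markers Pou5f1, Nanog, Sox2, Esrrb, Zfp42 and Tdgf1 were present in every library, at 121 to 3189. Sox2 fell, with 126 and 121 in Myh9 KO cells and 177 and 183 in WT cells (log2 fold change -0.54, adjusted p = 0.0178 by limma and 0.000417 with random decimals). Zfp42 was called higher in Myh9 KO cells with random decimals only (adjusted p = 0.00325), and the others were called by neither test. Pearson's r over tested genes was 0.988 within Myh9 KO, 0.991 within WT and 0.964 to 0.968 between the groups.

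Of the 50 genes, 27 were listed at 0 in all 4 libraries, 4 others had a mean value under 1, and 19 were tested. Both tests called 3 of these 19 (15.8%), with Cd74 and H2-Ke6 higher and H2-Eb1 lower in Myh9 KO cells. Across all 11231 genes both tests called 10.9%, with 5.14% higher and 5.8% lower, and limma alone called 15.1%, with 7.17% higher and 7.96% lower. The groups did not overlap for 12 of the 19, beside 53.5% of all tested genes. The median log2 fold change was 0 over the 19 genes and 0 over all tested genes. The summed value of the 50 genes was 223 and 225 in the Myh9 KO libraries and 230 and 231 in the WT libraries. The set as a whole thus lay close to the background in both its share of calls and its median, while single genes stood far from it.

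**Figure D1:**
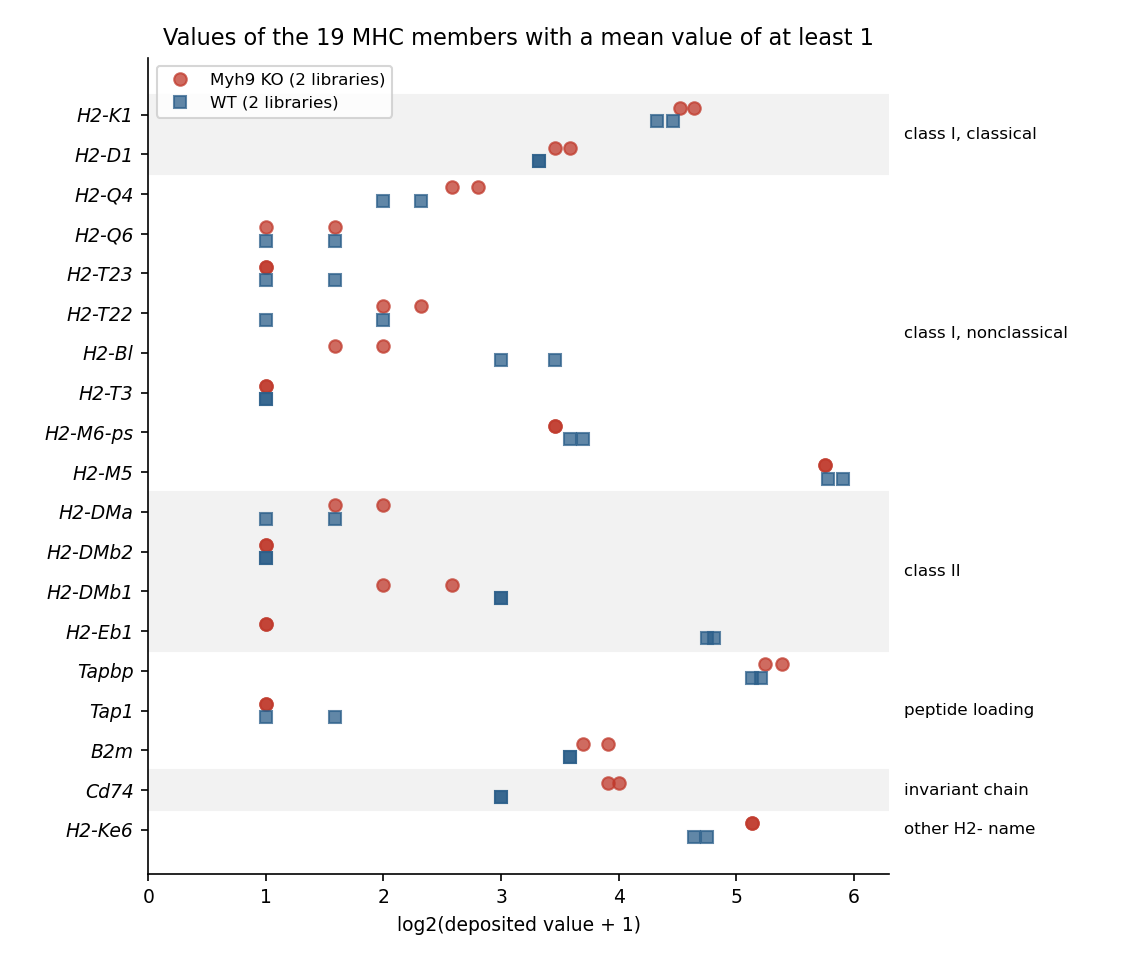
Deposited values of the 19 tested genes on a log2(value + 1) axis, 1 point per library, with Myh9 KO as red circles above WT as blue squares and genes grouped by class. H2-Eb1 is at 1 in both Myh9 KO libraries and at 27 and 26 in WT, while Cd74 is at 14 and 15 in Myh9 KO and at 7 in both WT libraries.

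Of the 12 class II genes, 7 were listed at 0 in all 4 libraries and 4 were tested, and among these both tests called the beta chain gene H2-Eb1, which fell in Myh9 KO cells. Before the values, the promoter windows of H2-Eb1 and of H2-DMb1 are shown, because class II genes are known to share an X box, bound by the RFX complex, and a Y box, bound by NF-Y, upstream of their start. The windows of H2-K1 and H2-D1 are shown as well. These classical class I genes carry a kappa B site and an interferon-stimulated response element (ISRE) there. Each window runs from 250 bases before to 50 bases after the RefSeq gene start on GRCm38.p6, written 5′ to 3′ on the strand of the gene, with motif matches in capitals. H2-Eb1 is at chr17:34305617-34305916 on the plus strand, H2-DMb1 at chr17:34152941-34153240 on the plus strand, H2-K1 at chr17:34000298-34000597 on the minus strand and H2-D1 at chr17:35262844-35263143 on the plus strand.
H2-Eb1: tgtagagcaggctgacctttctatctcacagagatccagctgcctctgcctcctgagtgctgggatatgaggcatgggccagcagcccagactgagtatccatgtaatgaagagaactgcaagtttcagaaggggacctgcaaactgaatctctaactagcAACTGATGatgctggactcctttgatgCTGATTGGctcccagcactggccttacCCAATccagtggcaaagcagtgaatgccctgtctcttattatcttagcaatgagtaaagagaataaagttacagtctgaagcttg
H2-DMb1: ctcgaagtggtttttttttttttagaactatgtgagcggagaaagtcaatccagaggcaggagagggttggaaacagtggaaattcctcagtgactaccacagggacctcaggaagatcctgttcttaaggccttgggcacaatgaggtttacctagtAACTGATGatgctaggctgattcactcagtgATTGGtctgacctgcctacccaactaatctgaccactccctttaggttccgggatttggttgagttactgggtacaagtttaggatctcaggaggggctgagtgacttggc
H2-K1: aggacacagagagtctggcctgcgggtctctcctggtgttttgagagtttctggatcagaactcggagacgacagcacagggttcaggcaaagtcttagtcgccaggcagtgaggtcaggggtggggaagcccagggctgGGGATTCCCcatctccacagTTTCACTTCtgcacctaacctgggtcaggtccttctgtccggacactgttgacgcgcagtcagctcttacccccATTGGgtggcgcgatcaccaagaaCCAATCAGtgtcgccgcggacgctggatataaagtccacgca
H2-D1: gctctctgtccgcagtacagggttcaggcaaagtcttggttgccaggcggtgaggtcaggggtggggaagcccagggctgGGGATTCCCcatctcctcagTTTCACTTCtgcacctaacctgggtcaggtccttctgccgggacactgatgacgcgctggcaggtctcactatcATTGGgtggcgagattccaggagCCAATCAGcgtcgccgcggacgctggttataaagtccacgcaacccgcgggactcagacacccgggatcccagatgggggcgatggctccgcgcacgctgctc

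With chromosome 18, and so Cd74, left out of the set, the RefSeq table held windows of 35 of the 50 genes. All 32851 windows were searched on both strands, with letter patterns chosen after these windows had been seen. The X box core letters AACNGATG occurred in 2.32% of all windows and in 5 of the 35, of which H2-Eb1 (-89 to -82), H2-DMb1 (-92 to -85), H2-DMb2 (-121 to -114) and H2-Eb2 (-130 to -123) are class II genes. The remaining window with the X box letters was that of the class I gene H2-M10.4 (-60 to -53, on the other strand). The Y box letters CTGATTGG occurred in 4.1% of all windows and in 19 of the 35, among them H2-Eb1 at -62 to -55. On the other strand they also matched in the class I genes H2-K1 (8 to 15) and H2-D1 (-53 to -46). The Y box letters thus occurred in windows of both classes. These letters contain ATTGG, the CCAAT box read on the other strand, which was in 37.4% of all windows and in 31 of the 35. The class II genes with the X box letters had them followed by ATTGG on the same strand. The ATTGG began at -59 in H2-Eb1, -61 in H2-DMb1, -90 in H2-DMb2 and -100 in H2-Eb2. H2-DMb1 and H2-DMb2 had ATTGG without the full Y box letters. The kappa B letters GGGATTCCC occurred in 0.353% of all windows and in 4 of the 35, namely H2-K1, H2-D1, H2-Q6 and H2-Q7. The ISRE letters TTTCNNTTC occurred in 7.52% of all windows and in 8 of the 35, including those 4 class I genes, each time after the kappa B letters.

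**Figure D2:**
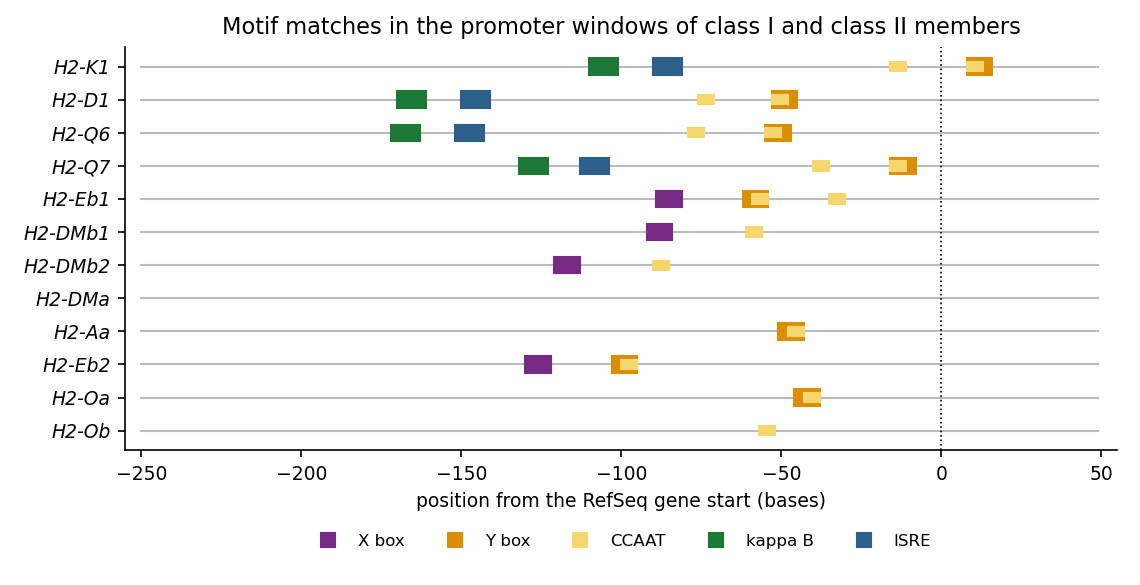
Positions of motif matches in RefSeq promoter windows, in bases from the gene start (dotted line), for the 4 class I genes with the kappa B letters and the class II genes that have a window in the table. Coloured boxes are matches on either strand, and a narrow CCAAT box inside a Y box is part of it; H2-Eb1 and H2-DMb1 have X box matches starting at -89 and -92, and H2-DMa has no match.

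H2-Eb1 encodes the beta chain of the class II molecule I-E (ENSMUSG00000060586, chr17:34305877-34316199, protein coding). Its values were 1 and 1 in the Myh9 KO libraries, against 27 and 26 in the WT libraries. The groups did not overlap, and replicates of each group lay within 1 unit of each other. H2-Eb1 fell with a log2 fold change of -3.78 (SE 0.03), a fold of 0.0727 (95% CI 0.0676 to 0.0783), with adjusted p = 0.000935 by limma and 8.48e-06 with random decimals. It was the 27th lowest log2 fold change among the 11231 tested genes. None of its 50-base words occur in another annotated gene. The limma interval, -3.887 to -3.675 in log2, does not cover rounding, with both Myh9 KO values at 1. The log2 fold change was -3.42 with random decimals, -4.17 on log2(value + 0.5) and -3.25 on log2(value + 2), each outside that interval. Without any single library the log2 fold change lay between -3.807 and -3.755 by limma and between -3.478 and -3.401 with random decimals. Each of these fits leaves 1 library in a group. Without WT 1 or WT 2 the equal Myh9 KO values left limma no spread to read a call from.

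The alpha chain partner of I-E was listed at 0 in all 4 libraries, and the annotation gives that gene, H2-Ea-ps, as a polymorphic pseudogene. Both chains of the other classical class II molecule, I-A, encoded by H2-Aa and H2-Ab1, were also at 0 in all 4 libraries. H2-Eb2, H2-Ob and the pseudogenes H2-Pa and H2-Pb were at 0 as well. H2-Oa, which with H2-Ob forms the DO molecule that modulates peptide exchange, was at 1 and 0 in Myh9 KO cells and at 0 and 0 in WT cells. A listed 0 can be a value that decimals were dropped from, since the depth is unknown. In both genotypes H2-Eb1 was therefore above 0 where its pairing chain was listed at 0.

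The remaining tested class II genes encode DM, the molecule that exchanges peptides in the class II groove. H2-DMa, the DM alpha chain, had 2 and 3 in Myh9 KO cells and 2 and 1 in WT cells (log2 fold change 0.50, SE 0.31, adjusted p = 0.398 by limma), and the groups met at 2. H2-DMb2, one of the DM beta chain genes, was at 1 in all 4 libraries. H2-DMb1, the other, had 3 and 5 in Myh9 KO cells and 7 and 7 in WT cells. The H2-DMb1 groups did not overlap, but the difference did not pass (log2 fold change -0.71, SE 0.26, adjusted p = 0.199 by limma and 0.0620 with random decimals), and its fold lay between 0.330 and 1.14 (95% CI). Its log2 fold change by limma was -0.415 without Myh9 KO 1 and -1.0 without Myh9 KO 2. In both fits the equal WT values left no spread to read a call from. Of the 50-base words of H2-DMb1, 22.7% occur in H2-DMb2 or other genes, so its reads can be split. The class II sum was 8 and 10 in Myh9 KO cells and 37 and 35 in WT cells, and without H2-Eb1 it was 7 and 9 in Myh9 KO cells and 10 and 9 in WT cells. The class II difference therefore rested on H2-Eb1 alone.

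Cd74, the invariant chain (ENSMUSG00000024610, chr18:60803848-60812646), is a partner of class II molecules encoded outside the complex. It had 14 and 15 in Myh9 KO cells, against 7 and 7 in WT cells, and the groups did not overlap. Cd74 rose, with a log2 fold change of 0.95 (SE 0.05), a fold of 1.94 (95% CI 1.73 to 2.16), and adjusted p = 0.0108 by limma and 0.00193 with random decimals. The direction was opposite to that of H2-Eb1, the class II chain. Without WT 1 or WT 2 the limma call was lost (adjusted p = 0.0938 and 0.094), while with random decimals it held without any single library (0.00214 to 0.0122). The nearest tested gene, Tcof1, a nucleolar protein gene 1.1 kb away, had 161 and 182 in Myh9 KO cells and 173 and 191 in WT cells. Rps14, a ribosomal protein gene on the other side, had 4120 and 4028 in Myh9 KO cells and 4567 and 4390 in WT cells (log2 fold change -0.14, adjusted p = 0.103 by limma), and neither neighbour was called. The next tested genes outward, Ndst1 (10 and 12 in Myh9 KO, 10 and 13 in WT) and Camk2a (2 and 3 in Myh9 KO, 2 and 2 in WT), were not called either.

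Cd74 is best known from blood cells, and in bulk RNA fewer cells of a type and less RNA per cell cannot be told apart. Of 12 blood and antigen-presenting cell markers, 9 were listed at 0 in all 4 libraries, including Ptprc, the pan-leukocyte CD45, and Ms4a1, Itgax, Itgam and Csf1r. The markers above 0 were Cd68 (34 and 31 in Myh9 KO, 27 and 29 in WT), Cd3e (13 and 15 in Myh9 KO, 11 and 11 in WT) and Cd79a (3 and 4 in Myh9 KO, 1 and 2 in WT). The 12 markers summed to 50 and 50 in Myh9 KO cells and to 39 and 42 in WT cells, in the same direction as Cd74, with none of them called, and their part in the result was not tested. Of 10 fibroblast markers 7 were at 0 in every library, among them Col1a1, Col1a2, Col3a1 and Dcn, and the list summed to 114 and 128 in Myh9 KO cells and to 157 and 155 in WT cells. Without Vim, an intermediate filament gene, it summed to 5 and 7 in Myh9 KO cells and to 4 and 4 in WT cells.

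The class I genes showed no call in either direction under limma's adjusted threshold. Of 32 genes, 19 were listed at 0 in all libraries, 3 others (H2-M3, H2-Q7 and H2-Q10) had a mean value under 1, and 10 were tested. None of the 10 was called by limma, 1 had an unadjusted p under 0.05, and 1, H2-Bl, was called with random decimals. The class I sum was 115 and 112 in Myh9 KO cells and 116 and 114 in WT cells. Their median log2 fold change was 0, as over all tested genes.

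The classical heavy chains H2-K1 and H2-D1, the main peptide presenters to CD8 T cells, were both detected. H2-K1 (ENSMUSG00000061232, chr17:33996017-34000333) had 24 and 22 in Myh9 KO cells and 19 and 21 in WT cells, without overlap (log2 fold change 0.19, SE 0.08, adjusted p = 0.245 by limma). H2-D1 (ENSMUSG00000073411, chr17:35262730-35267499) had 11 and 10 in Myh9 KO cells and 9 and 9 in WT cells, also without overlap (log2 fold change 0.20, SE 0.06, adjusted p = 0.156 by limma). Both genes were slightly higher in Myh9 KO cells, and neither difference passed. The 95% intervals of the fold were 0.938 to 1.39 for H2-K1 and 0.997 to 1.32 for H2-D1. Without Myh9 KO 2, the log2 fold change of H2-D1 was 0.26, in a fit where the equal WT values left no spread to read a call from. H2-K2, a transcribed pseudogene, was at 0 in every library.

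Among the nonclassical class I genes, H2-Bl, named for the blastocyst and annotated as a polymorphic pseudogene, had the log2 fold change of greatest size. H2-Bl (ENSMUSG00000073406, chr17:36080115-36084223) had 2 and 3 in Myh9 KO cells, against 7 and 10 in WT cells, without overlap. Its log2 fold change was -1.44 (SE 0.27), a fold of 0.369 (95% CI 0.192 to 0.711), with adjusted p = 0.0853 by limma and 0.00406 with random decimals, so the tests differed on it. Gm8909, a predicted gene 80.2 kb away that was chosen after its values were seen, had 1 and 2 in Myh9 KO cells and 6 and 10 in WT cells (log2 fold change -1.84, adjusted p = 0.0982 by limma and 0.00428 with random decimals). Only 1.4% of the 50-base words of H2-Bl occur in Gm8909, and 9.55% occur in any other gene.

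The T-region genes had low values. H2-T23, which encodes Qa-1, a ligand of receptors on natural killer cells, had 1 and 1 in Myh9 KO cells and 2 and 1 in WT cells. H2-T22, which encodes a ligand of some gamma-delta T-cell receptors, had 3 and 4 in Myh9 KO cells and 1 and 3 in WT cells (log2 fold change 0.66, SE 0.46, adjusted p = 0.425 by limma). H2-T3, the TL antigen of the gut lining, was at 1 in all 4 libraries. None of these was called, and 53.5% of the 50-base words of H2-T22 occur elsewhere, mostly in H2-T10, which was listed at 0. H2-T22 and H2-T23 also overlap A930015D03Rik on the opposite strand, and the library protocol describes no step that marks the strand. Without WT 2, the log2 fold change of H2-T23 was -0.585, where 1 and 1 in Myh9 KO cells faced a single value of 2 in WT cells. No call is read from that fit.

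In the Q region, H2-Q4 had 5 and 6 in Myh9 KO cells and 4 and 3 in WT cells, without overlap (log2 fold change 0.54, SE 0.17, adjusted p = 0.174 by limma). H2-Q6, of the Qa-2 family, had 2 and 1 in Myh9 KO cells and 2 and 1 in WT cells. Of the 50-base words of H2-Q4 and H2-Q6, 36.4% and 35.0% occur in other genes, so both values are uncertain. In the M region, H2-M5 had 53 and 53 in Myh9 KO cells and 59 and 54 in WT cells (log2 fold change -0.09, SE 0.06, adjusted p = 0.398 by limma), with a fold between 0.820 and 1.08 (95% CI). Its neighbour H2-M6-ps, a pseudogene, had 10 and 10 in Myh9 KO cells and 12 and 11 in WT cells (log2 fold change -0.18, SE 0.05, adjusted p = 0.160 by limma). Both M-region genes were lower in Myh9 KO cells without overlap, and neither was called.

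**Figure D3:**
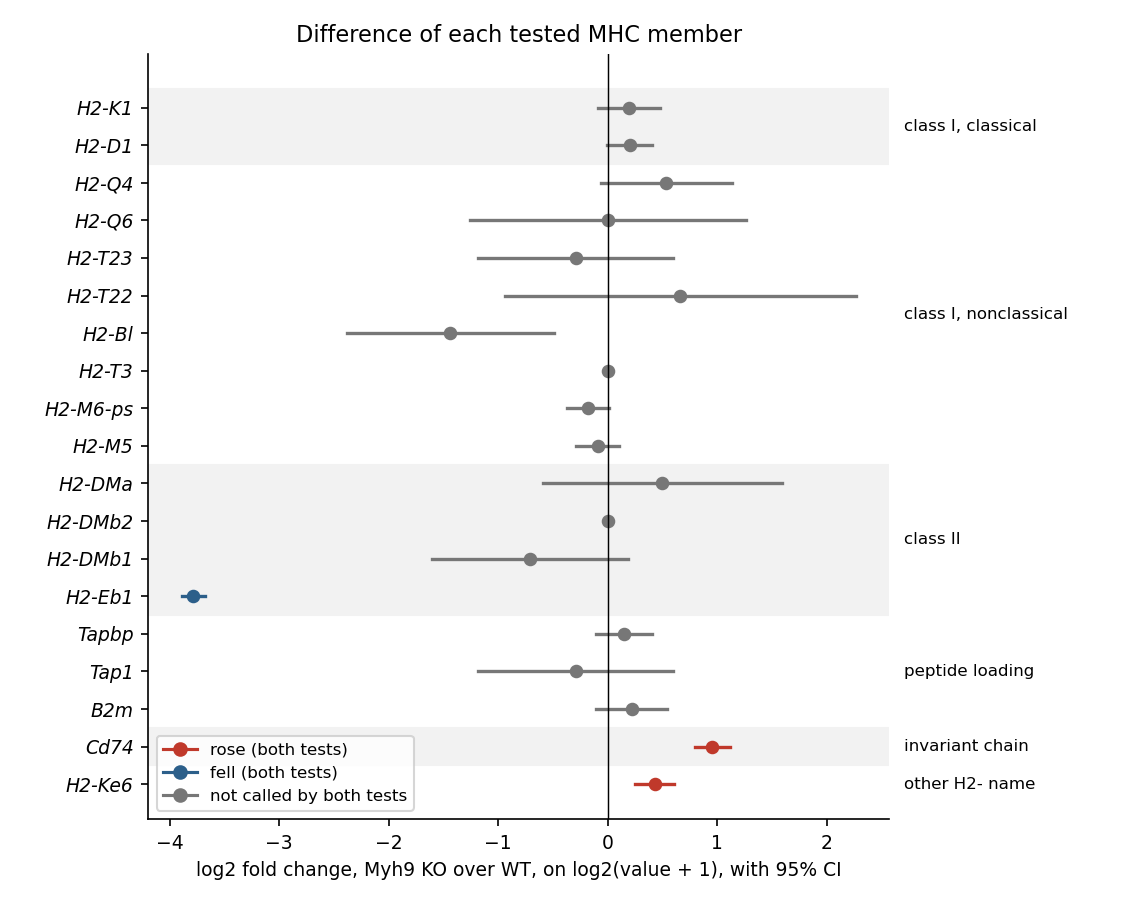
Log2 fold change of each of the 19 tested genes, Myh9 KO over WT, on log2(value + 1), with its 95% confidence interval from limma and genes grouped by class. H2-Eb1 at -3.78 lies apart from the others, Cd74 at 0.95 and H2-Ke6 at 0.43 are called higher, and the intervals of most class I genes cross 0; equal values in every library leave H2-T3 and H2-DMb2 with intervals too narrow to read.

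The genes that load class I molecules were not called. Tapbp, which encodes tapasin (ENSMUSG00000024308, chr17:33915899-33929288), had 37 and 41 in Myh9 KO cells and 34 and 36 in WT cells (log2 fold change 0.15, SE 0.07, adjusted p = 0.297 by limma). B2m, the light chain that every class I heavy chain needs (ENSMUSG00000060802, chr2:122147686-122153083), had 14 and 12 in Myh9 KO cells and 11 and 11 in WT cells (log2 fold change 0.22, SE 0.09, adjusted p = 0.245 by limma). The groups did not overlap for either gene, with B2m and Tapbp slightly higher in Myh9 KO cells. Their folds lay between 0.930 and 1.46 for B2m and between 0.929 and 1.33 for Tapbp (95% CI). Tap1, a TAP subunit gene, had 1 and 1 in Myh9 KO cells and 1 and 2 in WT cells, and Tap2, the other subunit gene, was at 0 in every library. Of the 3 tested loading genes none was called by limma or with random decimals, and 0 had an unadjusted p under 0.05. Without Myh9 KO 2 the log2 fold change of B2m was 0.32. Without WT 1 that of Tap1 was -0.58 in place of -0.29, where 1 and 1 in Myh9 KO cells faced a single value of 2 in WT cells. In both fits the group left with 2 libraries had equal values and so no spread to read a call from. With the trend on GC content and length removed, B2m had a log2 fold change of 0.61 (adjusted p = 0.0556) and Tapbp changed sign to -0.0050, so the sizes of these small differences depend on that step.

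H2-Ke6, also called Hsd17b8, encodes a hydroxysteroid dehydrogenase and lies between H2-K1 and the class II genes (ENSMUSG00000073422, chr17:34026033-34028060). It had 34 and 34 in Myh9 KO cells, against 24 and 26 in WT cells, without overlap. H2-Ke6 rose, with a log2 fold change of 0.43 (SE 0.05), a fold of 1.35 (95% CI 1.19 to 1.52), and adjusted p = 0.0435 by limma and 0.0118 with random decimals. Its neighbours were not called: Slc39a7, a zinc transporter gene 0.2 kb away, had 139 and 137 in Myh9 KO cells and 136 and 141 in WT cells, and Ring1, a Polycomb gene 1.4 kb away, had 24 and 22 in Myh9 KO cells and 17 and 21 in WT cells. The next ones outward, leaving out H2-K1, were Vps52 (45 and 48 in Myh9 KO, 43 and 43 in WT) and Rxrb (63 and 68 in Myh9 KO, 58 and 64 in WT). They were not called either. The limma call was lost without Myh9 KO 1 (adjusted p = 0.192) or Myh9 KO 2 (0.209), and the other test's call was lost without WT 1 (0.0833). Of its 50-base words 70.5% occur in other genes, mainly Gm20427, an overlapping model listed at no more than 1 in any library.

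The H2 interval of chromosome 17 held 272 other genes in the table, of which 78 were tested. Both tests called 2 higher and 7 lower in Myh9 KO cells, 11.5% of the 78, beside 10.9% of all genes, and their median log2 fold change was 0.02. Of the nearest tested genes around H2-Eb1 from outside the set, those on its left were not called. Tested members of the set on that side, H2-DMa, H2-DMb2, H2-DMb1 and Tap1, lie in the same stretch and were not called either. Psmb9, an immunoproteasome subunit gene 118.1 kb away, had 1 and 2 in Myh9 KO cells and 1 and 1 in WT cells, and Brd2, a bromodomain protein gene 183.2 kb away, had 302 and 304 in Myh9 KO cells and 292 and 311 in WT cells. On its right, Notch4, a Notch receptor gene 248.1 kb away, had 2 and 4 in Myh9 KO cells and 4 and 5 in WT cells and was not called either. Gpsm3, a G-protein signalling modulator gene 273.6 kb away, rose, with 18 and 19 in Myh9 KO cells and 8 and 7 in WT cells (log2 fold change 1.20, SE 0.08, adjusted p = 0.0199 by limma). Its limma call was lost without any 1 of the 4 libraries (adjusted p from 0.0564 to 0.124), and its call with random decimals held (0.000491 to 0.00406). Among the 7 lower genes, chosen after their values were seen, Ly6g6e had 9 and 10 in Myh9 KO cells and 24 and 24 in WT cells (log2 fold change -1.25, adjusted p = 0.0118 by limma). Other genes of the interval that both tests called differed less, such as the tubulin gene Tubb5, with 2152 and 2187 in Myh9 KO cells and 2530 and 2556 in WT cells (log2 fold change -0.23, adjusted p = 0.0166 by limma). The limma call was lost without WT 1 or WT 2 for Ly6g6e (adjusted p = 0.105 each) and without any 1 library for Tubb5 (0.0551 to 0.109), and with random decimals both calls held. Over the whole of chromosome 17, both tests called 9.68% of 568 tested genes, and the median log2 fold change was 0.

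**Figure D4:**
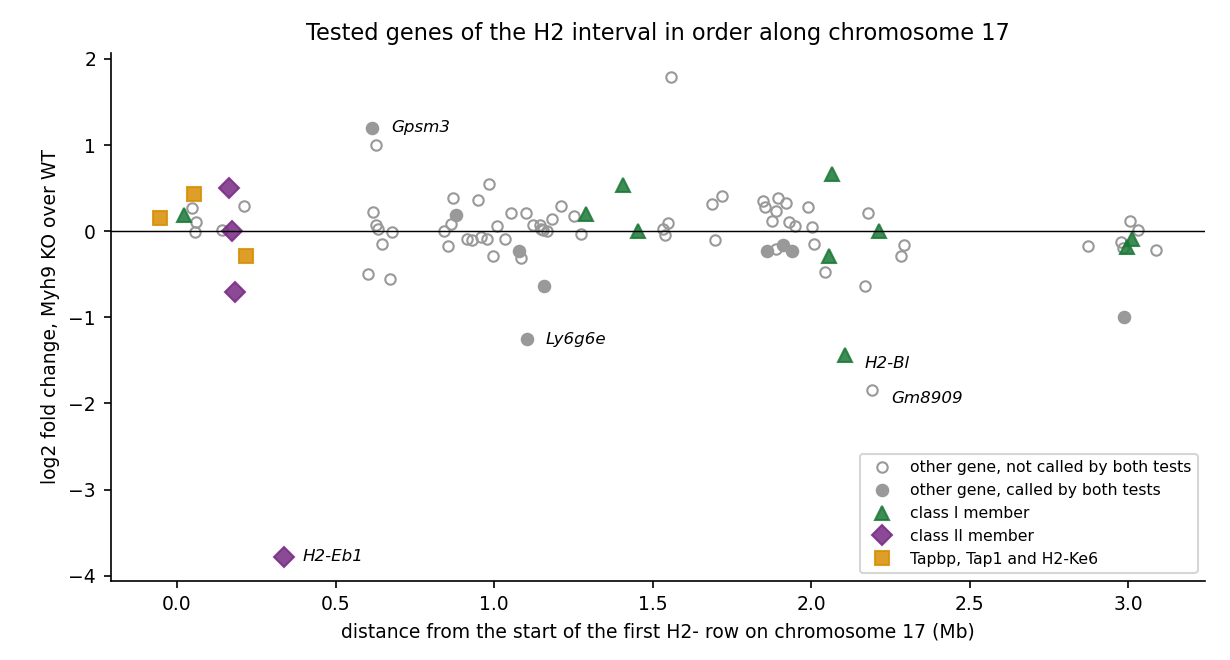
Log2 fold change, Myh9 KO over WT, of tested genes in order along chromosome 17, plotted against the distance in Mb from the start of the first H2- row. Triangles are class I genes, diamonds class II genes and squares Tapbp, Tap1 and H2-Ke6. Grey circles are other genes, filled where both tests called them. H2-Eb1 at -3.78 is the lowest point, and the nearest grey circles on its left, Psmb9 and Brd2, lie at 0.29 and 0.01. Between Brd2 and H2-Eb1 also lie H2-DMa at 0.50, H2-DMb2 at 0, H2-DMb1 at -0.71 and Tap1 at -0.29.

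The pathway upstream of the MHC genes was described with a list of 36 genes for transactivators, proteasome subunits, folding and trimming factors, class II processing enzymes and interferon signalling. The transactivators Ciita, which class II genes need, and Nlrc5, which acts on class I genes, were listed at 0 in all 4 libraries, as were Psmb8, Erap1, Ctss, Irf2, Irf8 and Jak2. H2-Eb1 was thus above 0 in both genotypes with Ciita listed at 0. Of the 28 tested genes both tests called 2 higher and 1 lower, 10.7%, beside 10.9% of all genes, and the median log2 fold change was 0.12. None of the genes of the RFX complex that binds the X box was called. Rfx5 had 4 and 3 in Myh9 KO cells and 4 and 5 in WT cells, and Rfxap had 10 and 14 in Myh9 KO cells and 10 and 9 in WT cells. Rfxank had 19 and 16 in Myh9 KO cells and 13 and 14 in WT cells, without overlap (log2 fold change 0.35, SE 0.11, adjusted p = 0.175 by limma and 0.0909 with random decimals). Rfxank lies on chromosome 8, whose genes are described with Psmb10 and Calr.

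The largest called difference of the list was in the proteasome. Psmb10, an immunoproteasome subunit that replaces Psmb7 in the catalytic core, rose to 82 and 81 in Myh9 KO cells, against 45 and 46 in WT cells (log2 fold change 0.83, SE 0.02, adjusted p = 0.00346 by limma). Its constitutive counterpart Psmb7 had 321 and 299 in Myh9 KO cells and 370 and 383 in WT cells (log2 fold change -0.28, adjusted p = 0.0784 by limma and 0.00694 with random decimals). Psmb6, the counterpart of Psmb9, fell to 904 and 901 in Myh9 KO cells, against 1075 and 1041 in WT cells (log2 fold change -0.23, SE 0.02, adjusted p = 0.0313 by limma). Psmb5, the counterpart of Psmb8, had 450 and 471 in Myh9 KO cells and 544 and 534 in WT cells (log2 fold change -0.23, adjusted p = 0.0556 by limma and 0.00926 with random decimals). The other immunoproteasome subunit genes were too low to read a pattern from, with Psmb8 at 0 and Psmb9 at 1 and 2 in Myh9 KO cells and 1 and 1 in WT cells. Calr, the chaperone calreticulin of the class I loading complex, rose to 1021 and 1034 in Myh9 KO cells, against 850 and 874 in WT cells (log2 fold change 0.25, SE 0.02, adjusted p = 0.0256 by limma). The limma call of Calr was lost without any 1 of the 4 libraries (adjusted p from 0.0735 to 0.141), and its call with random decimals held (0.00210 to 0.0459). The limma call of Psmb6 was lost without Myh9 KO 1 (0.156), Myh9 KO 2 (0.172) or WT 1 (0.0525) and with the GC and length trend removed (0.0981), and its call with random decimals was lost without WT 1 (0.0689). The calls of Psmb10 held in both tests without any single library.

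Psmb10 and Calr both lie on chromosome 8, where the median log2 fold change of the 646 tested genes was 0.21 and both tests called 12.7% higher, against a median of 0 over all genes. Tapbpl, a tapasin-related peptide editor, had 2 and 2 in Myh9 KO cells and 1 and 1 in WT cells and was called by limma only (adjusted p = 0.208 with random decimals). It lies on chromosome 6, where the median was 0.45 and both tests called 30.5% of the tested genes higher. The part of these chromosome-wide shifts in the single genes was not tested. The interferon pathway gene Irf1, with 17 and 18 in Myh9 KO cells and 15 and 14 in WT cells (adjusted p = 0.106 by limma), did not pass.

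**Figure D5:**
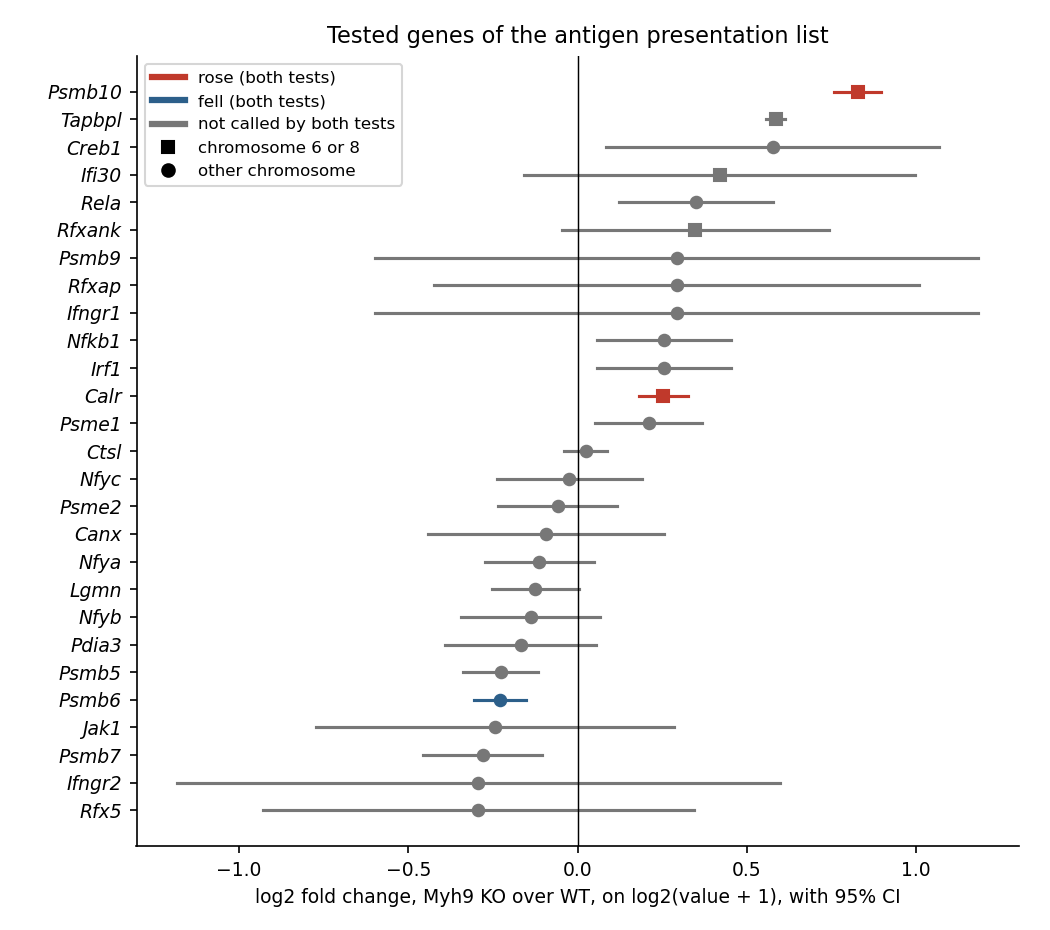
Log2 fold change of tested genes of the antigen presentation list, Myh9 KO over WT, on log2(value + 1), with 95% confidence intervals from limma, sorted by size. Squares are genes on chromosomes 6 and 8 and circles those on other chromosomes; Psmb10 at 0.83 and Calr at 0.25 are called higher and Psmb6 at -0.23 lower.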

How the data were processed

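RNA from 2 Myh9 KO and 2 WT libraries was sequenced after TRIzol extraction, oligo-dT enrichment and random-hexamer priming, per the labels. The deposited values form a score: whole numbers with nearly equal library sums, whose normalization is not given in the sources used here. Bowtie2 2.2.5, RSEM 1.3.0, bcl2fastq and the builds mm10 and hg38 were named without roles, per the submitters' processing notes. Depth is unknown, so no counting error can be given.

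Genes whose mean value reached 1 were fitted with limma 3.58.1 in R 4.3.3, with a mean-variance trend and no replicate block, on log2(value + 1). In the second fit a uniform number from 0 to 1 was added to each value, and the adjusted p is the median of 25 draws. Both fits were tested on simulated data. Coordinates are the table's, on mm10 (GRCm38); 50376 of the 50600 identifiers occur in GENCODE vM21, and 36 of the 50 genes have the same coordinates there. The share of 50-base words found in other genes was taken from vM21 transcripts. All 50 genes were accounted for, and every tested one is named. Called genes of the pathway list are named by rule, as are the nearest tested neighbours of called genes, taken from outside the 50. One further listed gene is left out of the text and plots. The members and lists were chosen with earlier results of these data known. The alternatives were other pseudocounts, filters and scalings, no mean-variance trend, GC and length correction, a replicate block and each library left out.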

Additional observations from a re-analysis of the deposited data

How the results depend on the processing

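The fall of H2-Eb1 kept its direction and its call with the other pseudocounts, filters and scalings and with random decimals. Its direction also held without any single library. Without 1 library at a time, limma called 3 to 5 of the MHC genes (3 to 5 with random decimals), 0 to 2 of class I (1 with random decimals) and 1 to 2 of class II (1 to 2 with random decimals), 1492 to 1986 of all genes, 3 to 4 of the pathway list and 6 to 12 of the other interval genes. The combination of random decimals with a library left out was chosen after seeing the data. With all 4 libraries limma called 3 of the MHC genes and 11 of the interval genes. Each fit without a library leaves 1 library in a group, and equal values in the other group leave a gene no spread. Without Myh9 KO 2 this was so for Cd74, H2-DMb1, H2-D1 and B2m, whose WT values were equal. Nothing is read from the limma count of MHC genes there. Myh9 ranged from -3.34 to -3.07 in the same fits, with adjusted p from 0.00508 to 0.0709, and lost its call without Myh9 KO 1 (0.0675) or Myh9 KO 2 (0.0709).

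Removing the GC and length trend gave 5 calls among the MHC genes, 1 in class I and 2 in class II. The added calls were H2-DMb2 and H2-T3, whose values were equal in all 4 libraries. Median centring and random decimals each gave 1 class I call in place of 0, that of H2-Bl, lower in Myh9 KO cells. Testing every gene with a value above 0 also gave 1 class I call, of 13. It was in the other direction, on a gene whose values never passed 1, and H2-Bl was not called there. With random decimals 2587 genes were called over the table in place of 1699, 8 in place of 4 in the pathway list, and 20 in place of 11 in the interval. The library medians differed by -0.05 (Myh9 KO minus WT). Median centring removed this difference, which moved the fold changes upward, and gave 1164 higher and 819 lower genes, against 805 and 894 before. Tapbp reversed to -0.0050 with the GC and length trend removed, and Tap1 to 0.095 with random decimals without WT 2. The cause was not tested.

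The groups share replicate numbers, and the labels do not say whether these mark a pairing. Deviations of same-numbered libraries correlated at 0.0407, a single value that cannot settle it. A fit with the numbers as a replicate block left 0 calls among the MHC genes, 0 in class II, 0 in the pathway list, 0 in the interval and 54 in all, with Myh9 at -3.20 (adjusted p = 0.0723). It leaves a single residual degree of freedom.

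Whole numbers limit the genes with low values, where 1 unit is a large fold. Of the 50 genes, 27 at 0 and 4 others with a mean value under 1 could not be tested.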
